A study of Mus musculus with 6 samples.

Results

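The 42 genes described here encode the core proteins that copy DNA. The rule is a list of mouse symbols of known role and uses no measured value, although the list was drawn up with earlier results of these data known. All 42 of 42 were found among the 14162 genes of the deposited tables. RNA came from whole mouse lungs at E12.5, a day in embryonic development when the airways branch. In 3 libraries, called Dnmt1KO, the embryos were ShhCre-Dnmt1KO, so Dnmt1 was deleted by Cre recombinase driven from Shh, a gene of the endoderm that lines the airways. Wild-type littermates gave the remaining 3, called WT. The labels name neither Cre nor a Dnmt1 allele for WT, so effects of carrying Cre and of losing Dnmt1 cannot be told apart. No cell sorting is named, so each sample also holds mesenchymal, vascular and blood cells, which lie outside the endoderm. The labels do not say if libraries are separate embryos or pools, and the p-values therefore measure the spread between these samples, which may be technical.

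Replication starts at origins. The origin recognition complex (ORC), with Cdc6 and Cdt1, loads the ring-shaped MCM helicase onto DNA in G1 phase, and Cdc45 and the GINS complex switch that helicase on in S phase. Primase and polymerases alpha, delta and epsilon then make the new strands. Delta and epsilon are held to DNA by the sliding clamp PCNA, which is loaded by replication factor C (RFC). Dnmt1 belongs to the same setting, since it copies methylation onto the new strand behind the fork and binds PCNA. Many replication genes are transcribed late in G1 by E2F factors, so their summed RNA in a tissue is widely read as a sign of how many cells are in cycle.

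A sequence feature found in some of these promoters, though not in most, is the E2F-type motif, which is shown here because the list held it more often than all genes together, by the counts that follow. RefSeq promoter windows of the GRCm38.p6 build, from 250 bases before to 50 bases after a start site, were found for 35 of the 42 genes. The motif was searched on both strands as TTTCCCGC, TTTCGCGC, TTTGCCGC or TTTGGCGC, and matches could overlap. It occurred in at least 1 window of 14 of the 35 genes, against 704 of all 27025 genes with a window (2.61%) and 498 of the 10826 such genes that the expression tables hold (4.60%). All windows had 300 bases. The 14 genes were Mcm3, Mcm5, Mcm6, Mcm7, Rfc3, Pola1, Pold1, Pole2, Gins3, Cdc6, Cdt1, Orc1, Orc3 and Lig1. A match is a string of letters and not a measured binding site.

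Mcm6 had the most matches of the 14. The stretch below is its 130 bases up to the start site, at chr1:128359706-128359835 on the minus strand, with the matches in capitals. The first 2 matches overlap and lie on opposite strands.
Mcm6 upstream: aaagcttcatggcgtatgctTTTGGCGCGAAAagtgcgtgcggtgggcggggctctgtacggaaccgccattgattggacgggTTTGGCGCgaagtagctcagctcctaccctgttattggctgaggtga

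Windows of 30 bases around the motif follow for genes of different roles, with every match in capitals and read along the gene's own strand. They show that either orientation occurred, that 2 matches overlap in Mcm5 and that 2 lie side by side in Rfc3. Orc1 lies at chr4:108579416-108579445 (plus strand), Cdc6 at chr11:98908002-98908031 (plus), Mcm5 at chr8:75109345-75109374 (plus), Mcm7 at chr5:138172030-138172059 (minus), Pola1 at chrX:93632275-93632304 (minus), Pold1 at chr7:44548766-44548795 (minus) and Rfc3 at chr5:151651200-151651229 (minus).
Orc1: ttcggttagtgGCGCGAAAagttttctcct
Cdc6: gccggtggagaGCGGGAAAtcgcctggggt
Mcm5: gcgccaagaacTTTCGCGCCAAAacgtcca
Mcm7: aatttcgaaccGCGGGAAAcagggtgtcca
Pola1: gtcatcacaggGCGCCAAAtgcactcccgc
Pold1: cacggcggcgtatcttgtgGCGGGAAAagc
Rfc3: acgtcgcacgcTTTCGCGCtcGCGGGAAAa

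The libraries held between 18192629 and 25597662 reads. Dnmt1KO replicate 1 had 3 reads over 4 genes of the Y chromosome and the other 5 libraries between 4155 and 5207, so the groups were not balanced for sex. Epithelial markers (10 of 10 listed) and mesenchymal markers (7 of 7) of the lung were measured and none was at 0 in any library. Dnmt1 checks the labels only in part, since deletion was limited to the Cre lineage. It stood at log2 values of 15.57, 15.40 and 15.31 in Dnmt1KO replicates 1 to 3 and 15.72, 15.74 and 15.76 in WT replicates 1 to 3. The groups did not overlap, with a log2 difference of -0.31 ± 0.09 (SE, n = 3 each) that did not pass limma's test over all genes (adjusted p = 0.507). An exact two-sided permutation test of Dnmt1 gave p = 0.1, the smallest that 3 against 3 allow.

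Replication genes were expressed at nearly the same level in both groups. By limma on the deposited log2 values, adjusted over all 14162 genes, 0 of the 42 passed in either direction, against 0.290% of all genes (40 higher and 1 lower). Differences between Dnmt1KO and WT ran from -0.21 for Pold1 to 0.051 for Tyms on the log2 scale, with a median of -0.052, or 96.5% of the WT level. The median over all genes was -5.9e-05. Of the 42 differences 34 were negative and 8 positive, while 7086 of all 14162 genes were negative. Because the genes were read in the same 6 libraries, those 34 are not separate pieces of evidence. The smallest adjusted p among them was 0.968, for Mcm2.

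Precision was high enough to bound the changes between these samples. Each of the 42 genes had a 95% interval (unadjusted, from the limma fit) that lay within 1.5-fold of no change, that is within 0.585 on the log2 scale, as did 72.0% of all genes. The lowest end of any interval was -0.46, for Gins2, and the highest 0.39, for Rpa3. Every gene was well covered, with 457 to 9568 reads per library. Intervals within 1.5-fold were not particular to this list. They were also found for all 53 other replication genes and all 12 mitosis genes described below. All these intervals rest on the spread between these samples, which may be technical, so they need not bound the difference between genotypes. They also describe whole lung: a larger change confined to the epithelium would be diluted by the other cells. Fewer cells of a type cannot be told apart from less RNA per cell.

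**Figure D1:**
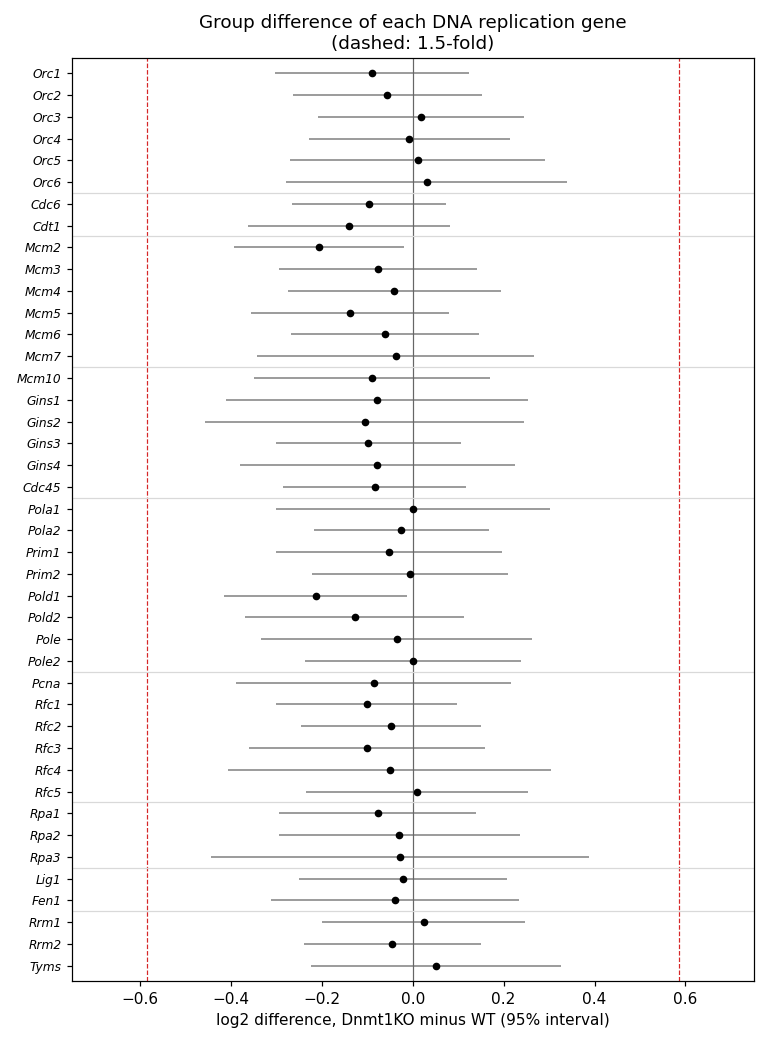
Log2 difference (Dnmt1KO minus WT, horizontal axis) of each of the 42 genes, grouped by role and separated by grey lines; points are limma estimates from 3 libraries per group and bars their unadjusted 95% intervals. All bars stay between the dashed 1.5-fold lines at 0.585 on either side, and Mcm2 and Pold1 have intervals below 0.

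Levels between genes are compared as reads per kilobase of the principal transcript, scaled to the library total (RPKM), given as the WT mean ± SD of 3 libraries. Pcna was the highest at 190 ± 27.1 and Orc1 the lowest at 8.55 ± 0.50. The 6 MCM subunits, which form 1 ring with 1 copy of each, lay within a narrow band, from 88.1 ± 8.63 for Mcm4 to 118 ± 10.5 for Mcm6. ORC subunits spread far more, from Orc1 to 55.9 ± 7.79 for Orc6. In Dnmt1KO the corresponding levels were 180 ± 22.5 for Pcna, 8.11 ± 0.20 for Orc1, 86.5 ± 7.36 for Mcm4, 114 ± 4.11 for Mcm6 and 57.6 ± 7.78 for Orc6. On this scale the group means of each of these 5 genes differed by less than the WT SD. Reads from exons outside the principal transcript may be counted too, so the levels are approximate.

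**Figure D2:**
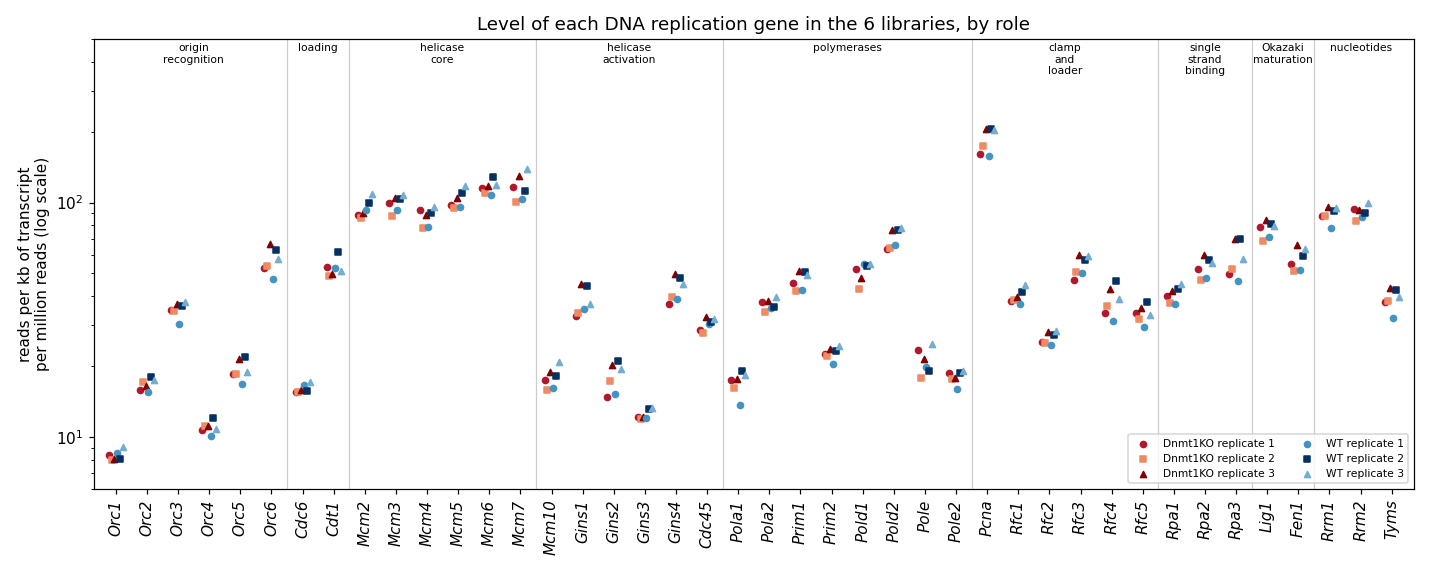
Level of each of the 42 genes (vertical axis, RPKM, log scale) in each of the 6 libraries, ordered by role; reds are Dnmt1KO and blues WT, and each symbol is 1 library. The MCM subunits share 1 level near 100 in WT, Pcna stands above all others at 190, and Orc1 is lowest at 8.55.

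Origin recognition genes showed differences on both sides of 0. Orc1, the subunit whose amount varies over the cell cycle, had log2 values of 11.32, 11.25 and 11.27 in Dnmt1KO and 11.36, 11.31 and 11.45 in WT. Dnmt1KO replicate 1 was above WT replicate 2, so the groups overlapped (difference -0.090 ± 0.093 SE). Orc6, a small subunit of ORC, stood at 12.75, 12.78 and 13.09 against 12.61, 13.04 and 12.89. Here WT replicate 1 was the lowest and Dnmt1KO replicate 3 the highest of the 6 (difference 0.031 ± 0.14). Orc3 read 12.99, 12.97 and 13.08 in Dnmt1KO against 12.81, 13.08 and 13.11 in WT (0.018 ± 0.099). Orc5 read 11.95, 11.96 and 12.17 against 11.83, 12.23 and 11.99 (0.011 ± 0.12). In both, WT replicate 1 was the lowest of the 6 libraries, and the groups overlapped. Orc2 (-0.056) and Orc4 (-0.0077) were negative.

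The loading factors were the role with the lowest median, -0.12 over its 2 genes. Cdc6, the ATPase that joins ORC at the origin, had values of 12.83, 12.83 and 12.86 in Dnmt1KO and 12.95, 12.89 and 12.98 in WT. All 3 Dnmt1KO libraries lay below all 3 WT libraries, but by a small step (difference -0.096 ± 0.074, unadjusted p = 0.229 by limma). Cdt1, the MCM loader that geminin holds in check, had 13.53, 13.40 and 13.42 against 13.53, 13.77 and 13.48. Its 2 groups overlapped, and WT replicate 2 was the high value (difference -0.14 ± 0.10).

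All 6 subunits of the MCM ring had negative differences, from -0.21 to -0.038, and 1 of them had an unadjusted p under 0.05. The sign was not stable in 3 of the 6: without WT replicate 2 Mcm6 was 0.0078, without WT replicate 3 Mcm7 was 0.082 and Mcm4 0.014, and without Dnmt1KO replicate 2 Mcm7 was 0.059 and Mcm4 0.029. Mcm2, which also carries parental histones at the fork, read 14.88, 14.84 and 14.92 in Dnmt1KO against 14.98, 15.10 and 15.19 in WT. The groups did not overlap, and Dnmt1KO stood at 86.6% of WT (difference -0.21 ± 0.08 SE, 95% interval -0.39 to -0.020, unadjusted p = 0.0339, adjusted p = 0.968 by limma). Its partner subunit Mcm5 read 15.03, 14.99 and 15.13 against 15.02, 15.25 and 15.30, with WT replicate 1 inside the Dnmt1KO range (-0.14 ± 0.10). Mcm3 (-0.076), Mcm6 (-0.062), Mcm4 (-0.040) and Mcm7 (-0.038) were closer to 0. Mcm6 read 15.05, 14.99 and 15.09 in Dnmt1KO against 14.97, 15.25 and 15.11 in WT. Mcm4 read 15.04, 14.81 and 14.98 against 14.82, 15.04 and 15.09. The groups overlapped in both. Mcm7 shows how much libraries of 1 group differed, at 15.10, 14.89 and 15.26 in Dnmt1KO and 14.93, 15.07 and 15.36 in WT. Its SD was 0.19 in Dnmt1KO and 0.22 in WT, against a group difference of -0.038.

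Helicase activation genes had negative differences in 6 of 6, between -0.11 and -0.078. Of these, 3 turned slightly positive when 1 library was left out: without Dnmt1KO replicate 1 Gins1 was 0.0033, Gins2 0.0084 and Gins4 0.0088, and without WT replicate 2 Gins1 was 0.027. The largest standard error was that of Gins2, a subunit of the GINS complex, at 12.52, 12.74 and 12.98 in Dnmt1KO and 12.57, 13.06 and 12.92 in WT (difference -0.11 ± 0.15). Gins3 had the tightest Dnmt1KO values of the complex, 11.61, 11.59 and 11.60, against 11.60, 11.76 and 11.74 (-0.098 ± 0.089), and WT replicate 1 lay among them. Gins4, the most abundant transcript of the complex per length, read 12.31, 12.41 and 12.74 against 12.39, 12.70 and 12.60, with overlap. Gins1 and Gins4 both had a difference of -0.078, Mcm10 of -0.090 and Cdc45 of -0.084. None had an unadjusted p under 0.05.

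Polymerase genes held the largest negative difference and also the differences nearest to 0. Pold1, the catalytic subunit of polymerase delta, which makes most of the lagging strand, read 14.16, 13.87 and 14.04 in Dnmt1KO and 14.24, 14.23 and 14.24 in WT. The WT values were almost identical and all above Dnmt1KO, which stood at 86.2% of WT (difference -0.21 ± 0.09 SE, 95% interval -0.41 to -0.012, unadjusted p = 0.0401). Its small partner Pold2 read 13.38, 13.40 and 13.64 against 13.44, 13.68 and 13.68 (-0.13 ± 0.11), with overlap. Polymerase alpha's catalytic subunit gene Pola1 (3.5e-04) and Pole2 of polymerase epsilon (1.3e-04) had differences near 0. Pola1 read 13.22, 13.11 and 13.23 in Dnmt1KO against 12.88, 13.38 and 13.29 in WT, so WT held both its lowest and its highest value. The primase genes Prim1 (-0.053) and Prim2 (-0.0069), Pola2 (-0.026) and Pole (-0.036) lay between.

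Pcna, the clamp, read 14.61, 14.72 and 14.95 in Dnmt1KO and 14.59, 14.99 and 14.96 in WT. The low values came from both groups, and its interval ran from -0.39 to 0.22 (difference -0.086 ± 0.13). RFC clamp loader genes ran from -0.10 for Rfc1 and -0.10 for Rfc3 to 0.0095 for Rfc5, with Rfc2 at -0.047 and Rfc4 at -0.051. Rfc2 read 13.66, 13.65 and 13.80 in Dnmt1KO against 13.63, 13.79 and 13.82 in WT. Rfc5 read 13.23, 13.15 and 13.30 against 13.04, 13.42 and 13.20. Both overlapped between the groups. The 3 RPA subunits, which coat single-stranded DNA, were at -0.078 (Rpa1), -0.030 (Rpa2) and -0.028 (Rpa3). Rpa1 read 14.33, 14.24 and 14.40 in Dnmt1KO against 14.23, 14.47 and 14.50 in WT. Rpa3 varied most within groups of all 42, at 11.73, 11.79 and 12.22 in Dnmt1KO and 11.63, 12.26 and 11.94 in WT.

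Genes that finish the lagging strand differed little. Lig1, the ligase that seals Okazaki fragments, read 14.63, 14.44 and 14.73 in Dnmt1KO against 14.50, 14.71 and 14.66 in WT (-0.022 ± 0.10). Fen1, the flap nuclease that acts before it, read 13.69, 13.59 and 13.95 against 13.61, 13.83 and 13.91 (-0.039 ± 0.12). In both genes Dnmt1KO replicate 2 was lowest and Dnmt1KO replicate 3 highest of the 6 libraries.

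Of the genes that supply deoxynucleotides, 2 had positive differences. Tyms, thymidylate synthase, had the highest difference of the 42, 0.051 ± 0.12, from 13.56, 13.59 and 13.77 in Dnmt1KO and 13.34, 13.77 and 13.65 in WT. Rrm1, the large subunit of ribonucleotide reductase, read 15.13, 15.12 and 15.25 against 14.96, 15.23 and 15.24 (0.024 ± 0.10). Rrm2, the small subunit that is limiting in S phase, read 14.36, 14.19 and 14.34 against 14.26, 14.33 and 14.44 (-0.045 ± 0.085).

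Counts of genes that separated the groups are given here beside the shares over all genes. Of the 42 genes 3 were lower in every Dnmt1KO library than in every WT library (Mcm2, Pold1 and Cdc6), against 3.99% of all genes, and 0 were higher in that way, against 4.79%. Unadjusted p was under 0.05 for 2 lower genes, against 1.60% of all genes, and for 0 higher genes, against 2.92%. That count of members was 0 without Dnmt1KO replicate 2, without WT replicate 2 or without WT replicate 3, and 1 without Dnmt1KO replicate 1 or without Dnmt1KO replicate 3. It was 0 with plain moderation and with length and GC trends removed, 1 with quantile normalization or scaling to read totals, and 2 or 3 in the other alternatives. Genes with the promoter motif had a median difference of -0.083 (14 genes, -0.21 to 0.018) and genes with a window but no motif of -0.045 (21 genes, -0.21 to 0.051). The ranges of those sets cover each other, and no test was made of their difference.

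For the list's median, the spread between libraries of 1 group was larger than the difference between groups. The group means of the library medians differed by -0.053, against a pooled SD of 0.12. Taken against each gene's WT mean, the median over the 42 genes was -0.075, -0.14 and 0.046 in Dnmt1KO replicates 1, 2 and 3 and -0.16, 0.078 and 0.075 in WT replicates 1, 2 and 3. A low library therefore occurred in each group. WT replicate 1 was below its own group mean in 40 of the 42 genes and Dnmt1KO replicate 2 in 40 of 42, whereas over all genes these shares were 49.1% and 51.2%. Each of these libraries was the lowest of the 6 for 18 genes and Dnmt1KO replicate 1 for the other 6. The highest value was in WT replicate 3 for 19 genes, in WT replicate 2 for 15 and in Dnmt1KO replicate 3 for 8.

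**Figure D3:**
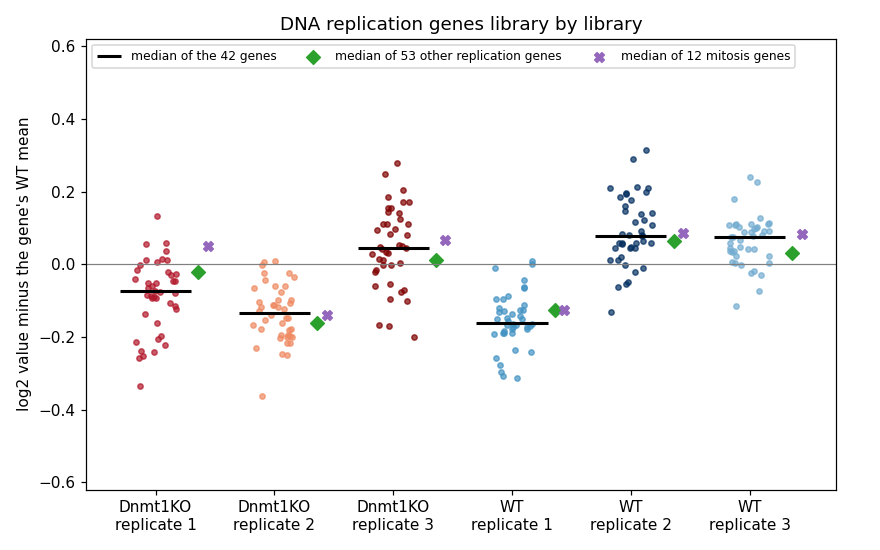
Log2 value of each of the 42 genes minus its WT mean (vertical axis) in each of the 6 libraries (horizontal axis); points are genes, black bars their medians, and diamonds and crosses the medians of 53 other replication genes and 12 mitosis genes. Dnmt1KO replicate 2 and WT replicate 1 sit low, with medians of -0.14 and -0.16, while the remaining libraries lie between -0.075 and 0.078.

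Summed over the list, the 42 genes stood at 5683, 5358 and 6106 RPM (reads per 1000000) in Dnmt1KO and 5344, 6131 and 6318 in WT. The lowest sum of each group was nearly the same, 5358 and 5344. Which library is left out therefore sets the size of the list's median: it was -0.13 without WT replicate 1, with 42 of 42 differences negative, -0.11 without Dnmt1KO replicate 3 (41 negative), and -0.017 without Dnmt1KO replicate 2 (23 negative). Without WT replicate 2 it was -0.012 (25 negative), without WT replicate 3 -0.028 (29) and without Dnmt1KO replicate 1 -0.032 (29). No gene of the 42 passed limma's adjusted test in any of these fits.

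Other genes of the cell cycle were also lowest in Dnmt1KO replicate 2 and WT replicate 1. Of 53 further replication genes on a separate list, covering licensing control, checkpoint, fork, chromatin assembly and nucleotide genes, all were measured and 0 passed in either direction, with a median of -0.043. Their library medians were -0.022, -0.16 and 0.012 in Dnmt1KO and -0.13, 0.064 and 0.031 in WT. The smallest p values among them belonged to Pold3 and Ccne1. Pold3, a subunit of polymerase delta like Pold1, had a difference of -0.23 ± 0.09 SE (unadjusted p = 0.0312, adjusted p = 0.949 by limma). Pold4, a further delta subunit with 120 to 160 reads per library, went the other way. Each Dnmt1KO library was above each WT library (0.22 ± 0.15, unadjusted p = 0.172 by limma). Ccne1, the cyclin that starts S phase, had a difference of -0.20 ± 0.09 (unadjusted p = 0.0475 by limma). Uhrf1, which brings Dnmt1 to newly copied DNA, read 15.23, 15.04 and 15.17 in Dnmt1KO against 15.26, 15.30 and 15.39 in WT, without overlap (-0.18 ± 0.08, unadjusted p = 0.0645). E2f1 had a difference of -0.16 ± 0.09 and overlapping groups. For 12 mitosis genes the library medians were 0.051, -0.14 and 0.067 in Dnmt1KO and -0.13, 0.085 and 0.084 in WT, and 0 of the 12 passed.

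Cdkn1a, the p21 inhibitor of cyclin-dependent kinases and a p53 target, was measured beside them because it holds cells out of S phase. It read 12.48, 11.91 and 10.34 in Dnmt1KO and 8.90, 8.99 and 8.76 in WT (difference 2.69 ± 0.49, adjusted p = 0.128, not past the test). By limma it passed without Dnmt1KO replicate 3 (adjusted p = 0.000667) and with sample weights (0.0323), and the adjusted p reached 0.657 with voom. All 3 Dnmt1KO libraries were above all WT libraries. Within Dnmt1KO, replicate 3 had the lowest Cdkn1a value and the highest median of the replication list, but the lowest list median was in replicate 2 and the highest Cdkn1a value in replicate 1.

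Levels of some cell type markers moved with the library pattern, and those of others did not. Heart muscle markers (5 of 5 measured, none at 0) stood at 25.9 to 311 RPM in Dnmt1KO and 29.8 to 58.6 in WT. By their median they were highest within each group in Dnmt1KO replicate 2 (2.82 above the WT mean) and WT replicate 1 (0.91), the libraries with the lowest replication medians. Epithelial markers stood at 586 to 860 RPM in Dnmt1KO against 743 to 849 in WT. Their medians against the WT mean were -0.25, -0.31 and 0.15 in Dnmt1KO and -0.15, 0.16 and -0.036 in WT, so they too were lowest within each group in Dnmt1KO replicate 2 and WT replicate 1. Erythroid markers (10 of 10, none at 0) stood at 1921 to 3272 against 1426 to 1975. Their medians were 0.34, 0.17 and 0.94 in Dnmt1KO and -0.24, -0.098 and 0.20 in WT, again lowest in those libraries. After a smooth trend on transcript length was taken out of each library, Dnmt1KO replicate 2 stayed lowest of its group (0.20). In WT, however, replicate 2 (-0.15) was then below replicate 1 (-0.074). Mesenchymal medians were highest within each group in Dnmt1KO replicate 2 (0.18) and WT replicate 1 (0.048), but by small steps. The next values were 0.16 in Dnmt1KO replicate 1 and 0.022 in WT replicate 2. With a smooth trend on transcript length taken out of each library, WT replicate 1 was the lowest of WT (0.0048). By range, mesenchymal markers stood at 4054 to 4906 against 3958 to 4628, endothelial markers (5 of 5) 443 to 601 against 337 to 575, macrophage markers (4 of 4) 98.3 to 115 against 109 to 114, and liver markers (4 of 5 measured) 14.9 to 28.6 against 3.01 to 5.29. Endothelial and macrophage medians split the libraries with low replication medians. They were lowest of Dnmt1KO in replicate 2 (-0.10 and -0.18) but highest of WT in replicate 1 (0.33 and 0.092). The endothelial steps were small, with Dnmt1KO replicate 3 at -0.094 and WT replicate 3 at 0.30. Once the length trend was removed, the endothelial median of WT replicate 3 (0.317) was above that of WT replicate 1 (0.314). Liver medians were at neither end of their group in Dnmt1KO replicate 2 (2.67) and WT replicate 1 (-0.25). None of these markers was at 0 in any library, and their part in the result was not tested.

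Across the 42 genes, which share libraries and depth, Spearman's rho between a gene's deviation from its group mean and its transcript length was 0.44 in Dnmt1KO replicate 1, 0.098 in Dnmt1KO replicate 2 and -0.51 in Dnmt1KO replicate 3. It was 0.20, -0.40 and 0.36 in WT replicates 1, 2 and 3. Over the 13967 genes with a length the values were 0.33, 0.16, -0.43, 0.37, -0.33 and -0.10 in the same order, so in 5 of the 6 libraries the sign was that of the table as a whole. Length was not the only such trend. With GC content in its place, rho over the 42 genes was 0.26, -0.31, 0.022, 0.41, -0.43 and 0.078 in that order. Over the 13967 genes the GC values were 0.072, -0.011, -0.059, 0.20, -0.058 and -0.18. Short transcripts such as Rpa3 (670 bases), Gins1 (1087) and Rfc4 (1228) were lower in Dnmt1KO replicate 1 than in Dnmt1KO replicate 3. Long ones went either way. Rpa1 (5077 bases) was lower too, at 14.33 against 14.40, and Pole (7163) was higher, at 14.06 against 13.94. The part of length in these gaps was not tested. Once a smooth trend on transcript length was taken out of each library, the list medians were -0.028, -0.10 and 0.033 in Dnmt1KO and -0.13, 0.057 and 0.072 in WT. Dnmt1KO replicate 2 and WT replicate 1 were still the low libraries, the list's median difference was -0.036, and 0 of the 42 genes passed.

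**Figure D4:**
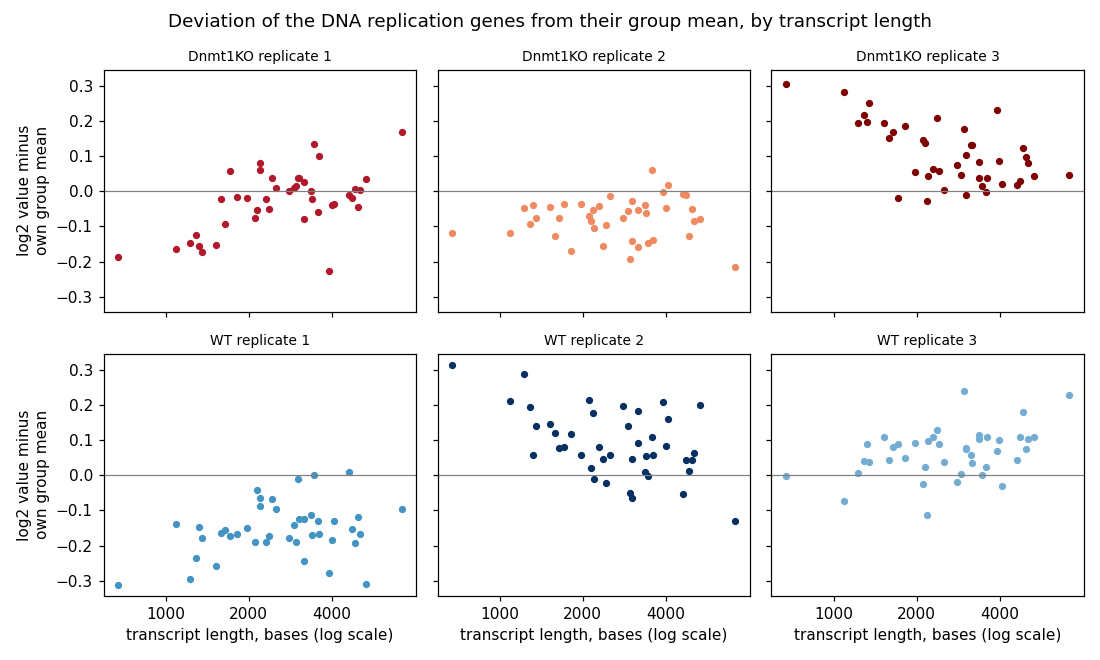
Deviation of each of the 42 genes from its own group mean (vertical axis, log2) against the length of its principal transcript (horizontal axis, bases, log scale), 1 panel per library. Points slope up in Dnmt1KO replicate 1 (rho 0.44) and down in Dnmt1KO replicate 3 (rho -0.51) and WT replicate 2 (rho -0.40), while WT replicate 1 lies below 0 for 40 of 42 genes at nearly every length.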

How the data were processed

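RNA-seq of 6 lung libraries was used, grouped by title. The submitters' processing notes name STAR, limma and mm9, without versions; for the counter, annotation, filter, scaling and reads shared with pseudogenes, the method is not given in the sources used here. Values deposited by the authors are on a log2 scale. They are the log2 of whole reads plus 0.5, times 1 constant per library (100% of 14162 genes within 1e-06 reads); these recovered reads give the depths, and every gene had at least 60 reads in all. Symbols (13967 genes), transcript lengths and GC came from GENCODE GRCm38 by identifier.

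Limma 3.58.1 in R 4.3.3 (genotype only, trend and robust moderation) was fitted across all genes, with Benjamini-Hochberg adjustment and a threshold of 0.05. The code was tried on simulated counts with known fold changes. Those counts held no length trend and no shift shared by a list of genes, so the trial does not cover such features of these libraries. The members and lists were chosen with earlier results of these data known. Given in every library were the 6 genes with the smallest p in each direction, the highest and lowest level of each role, and Mcm2, Pcna, Orc1, Cdc6, Cdt1, Rrm2, Lig1 and Fen1; Mcm7 and Gins2 were added after their values were seen. Of the other replication genes the 4 with the smallest p are named, and Pold4 was added beside Pold3 after its values were seen. Alternatives were a replicate block, removal of the lowest 25% of genes, quantile normalization, median centring, plain moderation, sample weights, voom with TMM factors, scaling to read totals and leaving out each library. Removal of length or length and GC trends (loess, span 0.5) was added after seeing the data. Alternatives for count or linear files did not apply.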

Additional observations from a re-analysis of the deposited data

How the results depend on the processing

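None of the 42 genes passed in any of the 16 alternatives; the lowest adjusted p was 0.322, with sample weights, and the largest difference in size was 0.281. Their median stayed negative, from -0.13 to -0.012. Same-numbered libraries deviated with r of -0.0027, -0.18 and 0.31, and Dnmt1KO replicate 2 correlated best with WT replicate 1 (0.38). Deviations from a group mean cancel within the group, so these r values cannot show whether the numbers pair libraries. With the replicate block, 26 genes of the whole table were called higher, 0 lower and 0 of the 42. Counts over the table were 0 higher and 0 lower with the lowest 25% of genes removed. Lower genes numbered 12 with sample weights, 0 with plain moderation, 2 with the length trend removed and 0 with the length and GC trend removed. Leaving out 1 library gave 15 to 42 higher and 0 to 17 lower. The cause of these shifts was not tested. Signs of small differences turned in 25 genes: 17 of the 42 kept theirs throughout. With sample weights they were Orc3 -0.048, Orc5 -0.024, Orc6 -0.042, Pola1 -0.081, Pole2 -0.049, Rfc5 -0.021, Rrm1 -0.042 and Tyms -0.0099. Quantile normalization gave Lig1 0.0060, Orc4 0.0059, Pola2 0.0012 and Prim2 0.014, scaling to read totals Orc4 0.0074 and Prim2 0.0083, removal of the length trend Orc4 0.014 and Prim2 0.0096, and removal of length and GC trends Lig1 0.016, Orc3 -0.0085, Orc5 -0.015, Pola1 -0.023, Pola2 0.0099 and Pole2 -0.020. Leaving out each library gave ranges across 0 for Fen1 (-0.14 to 0.039), Gins1 (-0.22 to 0.027), Gins2 (-0.24 to 0.0084), Gins4 (-0.20 to 0.0088), Lig1 (-0.087 to 0.057), Mcm4 (-0.12 to 0.029), Mcm6 (-0.13 to 0.0078), Mcm7 (-0.13 to 0.082), Orc3 (-0.077 to 0.073), Orc4 (-0.072 to 0.072), Orc5 (-0.083 to 0.12), Orc6 (-0.087 to 0.13), Pola1 (-0.15 to 0.10), Pola2 (-0.059 to 0.023), Pole (-0.12 to 0.078), Pole2 (-0.086 to 0.045), Prim1 (-0.13 to 0.012), Prim2 (-0.082 to 0.040), Rfc4 (-0.20 to 0.093), Rfc5 (-0.079 to 0.11), Rpa2 (-0.12 to 0.055), Rpa3 (-0.18 to 0.13), Rrm1 (-0.068 to 0.074), Rrm2 (-0.089 to 0.0066) and Tyms (-0.070 to 0.14). Depth limits little here, since every gene had at least 457 reads per library.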
